A study of Schizosaccharomyces pombe with 2 samples.

Results

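The genes described here serve pheromone signalling and sexual differentiation in the fission yeast *S. pombe*. They are the M and P mating genes, the pheromone MAP kinase pathway, and the genes around Ste11 and Mei2. They were chosen by name, as 41 listed symbols, and a probe set of the array was taken where the platform annotation gave exactly that symbol. This found 37 of the 41 genes on 39 probe sets, out of 2899 nuclear genes that a probe set named alone and that had a signal. No probe set carried the symbols *matmc_1*, *cgs3* or *prf1*. The kinase gene *pat1* had a probe set only under its older symbol *ran1* and is given apart.

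The study grew *sgo2*Δ cells (strain JP2247) and wt cells (strain JK107) exponentially in YES, a rich medium, at 32 °C. Both strains are labelled as h-, and the labels name no allele other than the deletion. Poly(A) RNA from 1 sample of each strain, 0.3 μg per labelling, was hybridized to 1 GeneChip yeast array. Sgo2 is a shugoshin, a protein of the centromere that the study also followed near telomeres. With 1 array per strain there is no replicate, so each ratio is that of 2 arrays, no p-value can be given, and precision is limited by that number.

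Fission yeast cells mate when nitrogen runs out. M cells secrete the lipid-modified peptide M-factor and carry the receptor for P-factor, and P cells do the reverse. Either receptor acts through the G protein alpha subunit Gpa1 and a MAP kinase cascade that also takes input from Ras1. The cascade and starvation signals act on the HMG-box transcription factor Ste11, which turns on mating genes and *mei2*. In growing cells the kinase Pat1 keeps Mei2 and Ste11 in check, and most of this programme is at a low level. An h- cell in rich medium is thus an M cell that grows without mating.

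Before the members, a few facts of the arrays set the scale. Values are array signals in the linear units of the scanner software, and the log2 ratio is that of the *sgo2*Δ signal over the wt signal. A gene was read as measured where the brighter signal reached 100, which 2796 named genes did. The brightest of 17 tag probe sets, controls without a target here, read 43.9 in *sgo2*Δ and 47.7 in wt. The median log2 ratio of the 2796 genes was 0.13, and most of them lay above 0, so a member with a ratio of 0.13 stood where most genes stood. Ratios between 0 and 0.13 fall below 0 once the arrays are centred on this median. The *sgo2* probe set read 2.81 in *sgo2*Δ and 581.5 in wt, and its fold lower was at least 5.82 when the dim signal was set to 100.

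None of the pheromone and differentiation genes that reached a signal of 100 was 2-fold higher or lower in *sgo2*Δ cells. Of the 37 genes, 34 reached a signal of 100 on at least 1 array, 30 of them on both. At least 2-fold higher were 0 of the 34, where 0.543% of the other named genes were, and at least 2-fold lower were 0, where 0.0362% were. That last share is 1 gene, the deleted *sgo2* itself. At least 1.5-fold higher were 2 (*fus1* and *map1*), against 0.942% of the other named genes, and at least 1.5-fold lower was 1 (*map2*), against 0.0724%. This split of 2 higher and 1 lower became 1 (*map1*) and 1 (*map2*) after centring, and 0 and 2 (*map2* and *map4*) with quantile normalization. The shares of the other named genes at 1.5-fold were not computed under these settings. All 3 had mean signals under 500, where the shares of the other named genes were larger, 4.44% higher and 0.522% lower. Both shares given for 1.5-fold lower are 2 genes each, and *sgo2* is 1 of them. In that range stood 18 members. Because *map1* and *map2* reached 100 on 1 array only, they passed the signal limit through the strain in which they were high, and these counts are given as a description. With both signals at 100 or more, 1 gene (*fus1*) was 1.5-fold higher and 0 were 1.5-fold lower. For this filter too the shares of the other named genes at 1.5-fold were not computed, so the counts have no scale beside them. The median log2 ratio of the 34 genes was 0.19, and 26 of them (76.5%) lay above 0, against 84.8% of the other named genes. After centring, 19 of the 34 lay above 0, as did 1379 of the 2761 other named genes. With quantile normalization 12 of 32 did. There the median of all named genes was -0.02, and the share of other genes above 0 was not computed. Over the 30 genes with both signals at 100 or more the median was 0.17. In cells taken as a whole culture, fewer cells that express a gene and less RNA per cell cannot be told apart.

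**Figure D1:**
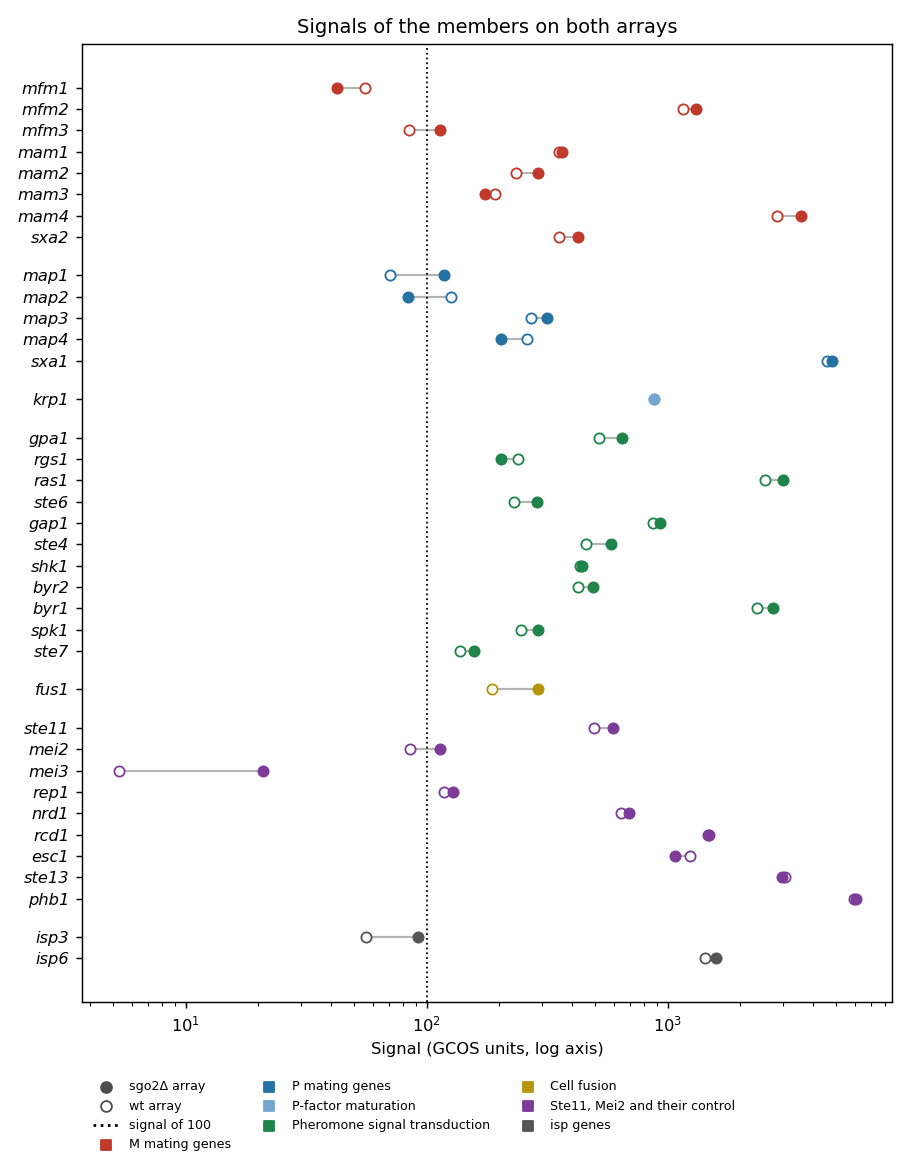
Signal of each of the 37 genes on the *sgo2*Δ array (filled) and the wt array (open), on a log axis in GCOS units, coloured by role, with a dotted line at 100. Most pairs lie close together, and the wider gaps are at *mei3*, *isp3*, *map1*, *map2* and *fus1*.

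The genes listed as M mating genes, for the cells' own mating type, differed little between the strains. Of 9 listed genes, 8 had a probe set and 7 reached 100. Of these 7, 0 were 1.5-fold higher or lower, and 6 lay above 0, where 84.8% of the other named genes did. Their median log2 ratio was 0.25, or 0.12 after centring and 0.026 with quantile normalization, against 0.13 as deposited for all named genes. Without *mam4*, which was not listed as a marker of M cells, 6 genes reached 100 and had a median of 0.22. The *mfm* genes encode precursors of M-factor, and they did not move alike. The signal of *mfm2* was 1309 in *sgo2*Δ and 1153 in wt (log2 ratio 0.18). The signal of *mfm3* was 113.6 in *sgo2*Δ and 84.3 in wt, a log2 ratio of 0.43 by the measured signals, or at least 1.14-fold higher against 100. Its 2 probe sets gave 0.36 and 0.50. The signal of *mfm1* was 42.4 in *sgo2*Δ and 55.6 in wt, under 100 on both arrays and near the tag probe sets. Its 2 probe sets gave -0.20 and -0.58, and no fold is drawn from them. One probe set each of *mfm1* and *mfm3* has the suffix _x, which Affymetrix gives to probe sets that may share probes with other sequences.

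M-factor is finished and released by other M genes. The gene *mam4*, for the methyltransferase that caps the peptide, read 3580 in *sgo2*Δ and 2834 in wt, 1.26-fold higher. Its log2 ratio of 0.34 lay above the 95th percentile (0.29) of the 200 other named genes nearest to it in mean signal. The gene *mam1*, for the transporter that exports M-factor, read 364.5 in *sgo2*Δ and 354.3 in wt, a log2 ratio of 0.04. Thus the methyltransferase gene was among the higher genes of its brightness and the transporter gene was not.

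The remaining M genes face the partner cell. The P-factor receptor gene *mam2* had a signal of 288.3 in *sgo2*Δ and 233.9 in wt (1.23-fold, log2 ratio 0.30). The gene *sxa2*, whose carboxypeptidase degrades P-factor, had 422.5 in *sgo2*Δ and 354.7 in wt (1.19-fold, 0.25). The M agglutinin gene *mam3* had 173.8 in *sgo2*Δ and 191.7 in wt, the only M gene of those at 100 with a ratio under 0 (-0.14). All 3 lay between the 5th and 95th percentiles of genes of like signal.

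The P mating genes were fewer and spread more widely. All 5 had a probe set and reached 100 on an array, with a median log2 ratio of 0.07, or -0.056 after centring and with quantile normalization. In each case this median is the ratio of *sxa1*, by far the brightest of the 5. Above 0 lay 3 and below it 2, where 84.8% of the other named genes lay above 0. The highest and lowest ratios were those of *map1* and *map2*, each at 100 on 1 array only. The gene *map1*, for the MADS-box transcription factor of P genes, read 118.5 in *sgo2*Δ and 70.6 in wt. This is a log2 ratio of 0.75 by the measured signals, and at least 1.18-fold higher against 100. The gene *map2*, for the P-factor precursor, read 83.6 in *sgo2*Δ and 125.7 in wt. Its log2 ratio was -0.59, or at least 1.26-fold lower against 100. The ratio of *map1* thus ran upward and that of *map2* downward, and at these signals the 200 nearest genes ranged from -0.41 to 0.71 around *map1* and from -0.37 to 0.64 around *map2* (5th to 95th percentile).

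The other 3 P genes were measured on both arrays. The P agglutinin gene *map4* read 202.7 in *sgo2*Δ and 261.4 in wt, 1.29-fold lower (log2 ratio -0.37), below the 5th percentile (-0.29) of genes of like signal. The M-factor receptor gene *map3* read 314.8 in *sgo2*Δ and 271.9 in wt (log2 ratio 0.21, or -0.015 with quantile normalization), and *sxa1*, for an aspartic protease of the pheromone response, read 4798 in *sgo2*Δ and 4565 in wt (0.07). The gene *krp1*, for the kexin-like protease that matures P-factor, is needed in all cells and was kept apart from the P genes. It read 877.2 in *sgo2*Δ and 878.2 in wt, a log2 ratio of -0.0016.

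Set side by side, the M genes had a median 0.18 above that of the P genes on the log2 scale. The M range, from -0.14 to 0.43, lay within the P range, from -0.59 to 0.75. Both P ends (*map1* and *map2*) and the upper M end (*mfm3*) are genes that reached 100 on 1 array only. Without such genes the ranges overlapped in part, from -0.14 to 0.34 for M genes and from -0.37 to 0.21 for P genes. Over genes with both signals at 100 or more, 6 M genes had a median of 0.22 and 3 P genes one of 0.07. Both P medians are the ratio of the bright gene *sxa1* alone, so the P side of the comparison rests on it. All named genes had a median of 0.13, which lies between them. No test of this difference was made, as 1 array per strain does not allow one. In these h- strains the P genes *map3*, *map4* and *sxa1* exceeded 100 on both arrays. The mating type itself could not be read from the arrays, because no probe set named a gene of the *mat* cassettes.

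**Figure D2:**
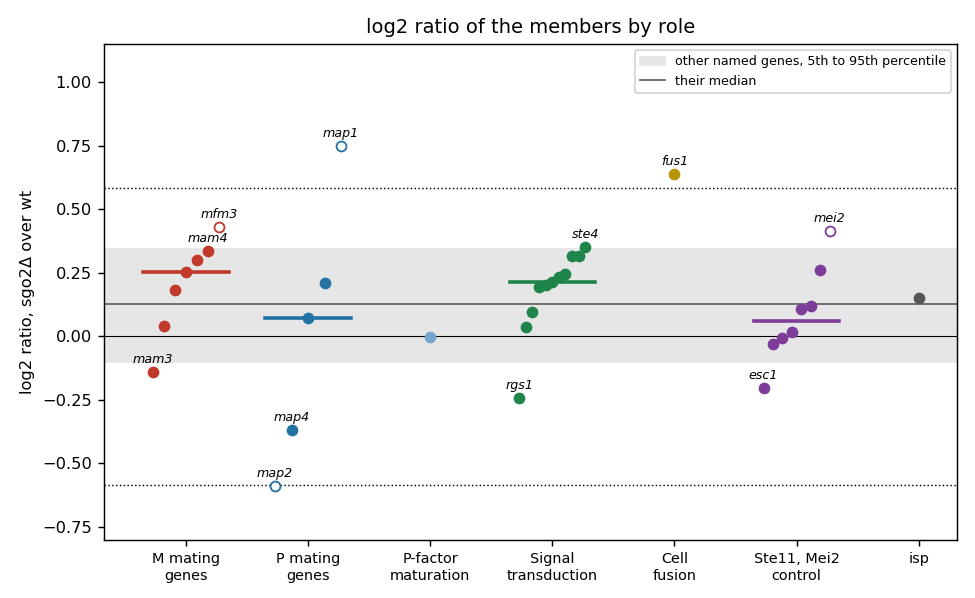
log2 ratio of *sgo2*Δ over wt for the 34 genes that reached 100 on an array, by role. Filled points reached 100 on both arrays and open points on 1, coloured lines are group medians (0.25 for M genes and 0.07 for P genes), the grey band holds the other named genes from the 5th to the 95th percentile, and dotted lines mark 1.5-fold. Only *map1* and *fus1* lie above the upper dotted line, and *map2* lies just under the lower one.

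The pheromone signal is carried from the receptor by a G protein, a Ras module and the MAP kinase cascade. These genes lay mostly a little above the bulk of genes. Their median was 0.085 after centring, which moves all genes alike and cannot change this place. With quantile normalization it was 0.026, against -0.02 for all named genes. All 11 genes reached 100 on both arrays. None was 1.5-fold higher or lower, and 10 had a ratio above 0, where 84.8% of the other named genes did. The median of all named genes was exceeded by 8, where 1379 of 2761 other named genes exceeded it. The group median was 0.21. At the G protein, *gpa1* read 645.3 in *sgo2*Δ and 517.7 in wt (1.25-fold, log2 ratio 0.32). The one gene below 0 was *rgs1*, whose product is a regulator of G protein signalling that damps the pheromone response. It read 203.0 in *sgo2*Δ and 240.2 in wt (log2 ratio -0.24). The G protein gene and the gene of its damper thus lay on opposite sides of the bulk, each within the range of genes of like signal.

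In the Ras module, *ras1* read 3010 in *sgo2*Δ and 2542 in wt (log2 ratio 0.24). The gene of its exchange factor, *ste6*, read 286.9 in *sgo2*Δ and 230.7 in wt (0.31). The gene of its GTPase-activating protein, *gap1*, read 932.2 in *sgo2*Δ and 872.7 in wt (0.10). The ratio of *ste6* was above the median of all named genes (0.13) and that of *gap1* was just under it. Both lay between the 5th and 95th percentiles of genes of like signal (-0.29 to 0.48 for *ste6*, -0.09 to 0.31 for *gap1*). The p21-activated kinase gene *shk1* had a log2 ratio of 0.04.

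The cascade itself was even. The adaptor gene *ste4*, whose product binds the first kinase, had the highest ratio of the group, with 584.3 in *sgo2*Δ and 458.2 in wt (1.28-fold, log2 ratio 0.35). The genes of the MAP kinase kinase kinase *byr2*, the MAP kinase kinase *byr1* and the MAP kinase *spk1* had log2 ratios of 0.20, 0.21 and 0.24. These 3 ratios lay close together although the signals of *byr1* were 2723 in *sgo2*Δ and 2349 in wt and those of *spk1* were 289.0 in *sgo2*Δ and 245.5 in wt. The gene *ste7*, needed for conjugation and meiosis, had a log2 ratio of 0.19.

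The formin gene *fus1*, which nucleates the actin focus at which partner cells fuse, had the largest ratio among the members measured on both arrays. It read 289.6 in *sgo2*Δ and 186.3 in wt, 1.55-fold higher, with a log2 ratio of 0.64, which was 0.51 after centring and 0.40 with quantile normalization, both short of 1.5-fold. Of the 2796 named genes, 23 had a higher ratio, and of the 200 nearest in signal, 4 did (5th to 95th percentile -0.29 to 0.48). A list of 14 further genes of cell fusion and of the mating projection was read beside it, and all 14 reached 100. None was 1.5-fold higher or lower, 12 lay above 0, where 84.8% of the other named genes did, and the median was 0.11. The claudin-like fusion genes *dni1* (301.4 in *sgo2*Δ and 235.0 in wt, log2 ratio 0.36) and *dni2* (0.29) and the membrane fusion gene *prm1* (0.18) were above the bulk, and *cfr1* was lowest (-0.08). The ratio of *fus1* exceeded that of every gene of this list, but most of these genes were brighter than *fus1*, and ratios spread less among bright genes.

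The group of genes listed for Ste11, Mei2 and their control had a median slightly under the bulk, although *ste11* and *mei2* themselves lay above it. The group median was -0.067 after centring, which moves all genes alike and cannot change this place. With quantile normalization it was -0.18, against -0.02 for all named genes. Of 12 listed, 9 had a probe set and 8 reached 100, with a median log2 ratio of 0.06. Above 0 lay 5 and below it 3, where 84.8% of the other named genes lay above 0. The gene *ste11* itself read 590.9 in *sgo2*Δ and 493.6 in wt (log2 ratio 0.26). Its ratio lay within the range of genes of like signal (-0.21 to 0.37), as did the ratios of 6 of the 7 M genes at 100. The meiotic regulator gene *mei2*, for an RNA-binding protein, read 113.8 in *sgo2*Δ and 85.4 in wt, a log2 ratio of 0.41 by measured signals and at least 1.14-fold higher against 100. Both were above 0, and *mei2* was near the limit of what the array resolves.

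The other arm, the Pat1 kinase and its inhibitor, gave little. The probe set of *ran1*, the older name of *pat1*, read 168.4 in *sgo2*Δ and 175.7 in wt (log2 ratio -0.06). The gene *mei3*, for the inhibitor of Pat1 that diploid cells make on entry into meiosis, read 21.0 in *sgo2*Δ and 5.28 in wt. Both signals were below the highest tag probe set of the same array, so no fold is given.

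Among the remaining regulators, 2 genes stood low for their brightness. The basic helix-loop-helix gene *esc1* read 1073 in *sgo2*Δ and 1235 in wt (log2 ratio -0.20, 5th percentile of like signal -0.08). The DEAD-box helicase gene *ste13* read 2990 in *sgo2*Δ and 3053 in wt (-0.03, 5th percentile -0.00067), a difference of only 0.979-fold. The others were close to equal on both arrays. Log2 ratios were 0.11 for *nrd1*, whose RNA-binding product holds back differentiation, 0.12 for *rep1*, a transcription factor of premeiotic DNA synthesis, and -0.0063 for *rcd1*, which is needed to induce *ste11* on starvation. The gene *phb1*, whose product is a prohibitin, had 0.02.

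**Figure D3:**
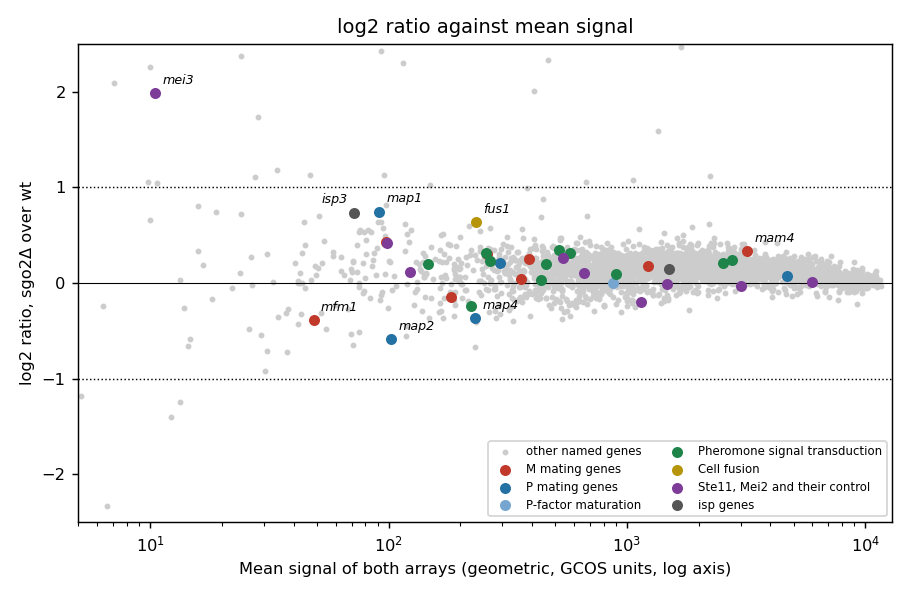
log2 ratio of *sgo2*Δ over wt against the mean signal of both arrays (log axis), for the 37 genes in the colours of their roles and 2854 other named genes in grey. Another 7 genes fall outside the axes, and dotted lines mark 2-fold. The spread narrows as the signal grows, so that *mam4* (0.34) stands out among bright genes while *mei3* and *isp3* lie among dim genes of wide spread.

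How far a ratio stands out depends on brightness. Among 151 other named genes with a mean signal of 100 to 300, the log2 ratio ran from -0.33 to 0.57 between the 5th and 95th percentiles, and among 770 with a mean signal of at least 3000 from -0.04 to 0.24. Set against the 200 other genes nearest in signal, 3 members lay above the 95th percentile (*fus1*, *map1* and *mam4*) and 4 below the 5th (*map2*, *map4*, *esc1* and *ste13*). These are 7 of 34, or 20.6%, where 10.8% of the other named genes lay outside in the same way. With both signals at 100 or more they were 5 of 30, or 16.7%, against 10.6%. With so few genes, and some of them chosen for a shared role, these shares are a description.

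Inputs to *ste11* from outside the pheromone pathway were read from a list of the cAMP pathway, the stress MAP kinase pathway and TOR. Of 22 listed genes, 21 had a probe set, all 21 reached 100, and 0 were 1.5-fold higher or lower. The median of these log2 ratios was 0.04, with 14 above 0 and 7 below, where 84.8% of the other named genes lay above 0. The lowest was *pka1*, for the catalytic subunit of protein kinase A, which opposes differentiation. It read 738.2 in *sgo2*Δ and 870.5 in wt (log2 ratio -0.24). Next to it stood *pcr1* (-0.24) and *atf1* (-0.20), for a pair of bZIP factors of the stress pathway that act on *ste11*. The highest was *csk1* (0.35), for a kinase that activates cyclin-dependent kinases. The lowest genes thus act both for and against differentiation.

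Genes of the system that removes meiotic mRNAs in growing cells, and some of its targets, formed a further list. Of 13 listed, 11 had a probe set and 7 reached 100, with a median log2 ratio of 0.12. The gene *mmi1*, whose RNA-binding product marks meiotic mRNAs for removal and is held by Mei2 in meiosis, read 659.3 in *sgo2*Δ and 640.9 in wt (0.04). Its partner gene *red1* had a log2 ratio of 0.29, and the exosome gene *rrp6* was lowest (-0.04). The meiotic cyclin gene *crs1*, a target, had the highest ratio, with 116.4 in *sgo2*Δ and 74.8 in wt (0.64 by measured signals). It reached 100 on 1 array only and was at least 1.16-fold higher against 100. By the measured signals it was the 1 gene of this list past 1.5-fold, where 0.942% of named genes other than the members were, or 4.44% of those with a mean signal under 500. The targets *mei4*, *rec8*, *ssm4* and *spo5* stayed under 100 on both arrays.

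As a check of the vegetative state, 16 genes listed as markers of meiotic or sporulating cells were read, 3 of which also stand in the lists above. Of these, 7 reached 100 on both arrays and 9 on neither, none was listed at 0, and 0 were 1.5-fold higher or lower. Summed over the 16 genes, the signal was 3622 in *sgo2*Δ and 3287 in wt. Most of that sum came from *spo15* (1278 in *sgo2*Δ and 1098 in wt) and *mde4* (1180 in *sgo2*Δ and 1071 in wt). Both were bright in these growing cultures of either strain, so the sum is no measure of meiotic cells. The highest ratio among the 7 genes at 100 was that of *meu14* (202.0 in *sgo2*Δ and 141.7 in wt, log2 ratio 0.51). The part of meiotic or sporulating cells in the ratios of *fus1* or *map1* was not tested.

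The study compared subtelomeres with the rest of the genome, so the place of the members was looked up in the gene order of the assembly ASM294v3. On chromosome 1 lay 24 of the 37 genes, on chromosome 2 lay 11 and on chromosome 3 lay 2. The spore wall gene *isp3* was the member nearest to a chromosome end, the 32nd coding gene of the left arm of chromosome 1, followed by *rcd1*, the 53rd from its own end. The signal of *isp3* was 92.3 in *sgo2*Δ and 55.8 in wt, a log2 ratio of 0.73, but both signals were under 100 and no fold is given. On the side of the telomere its measured neighbours were higher in *sgo2*Δ. The iron-siderophore transporter gene *str3*, 2 genes away, read 141.6 in *sgo2*Δ and 64.9 in wt, at least 1.42-fold higher. The hexose transporter gene *ght3*, 4 genes away, was at least 5.42-fold higher (541.9 in *sgo2*Δ and 85.4 in wt), and the dihydroxyacetone kinase gene *dak2*, 8 genes away, read 2332 in *sgo2*Δ and 776.9 in wt (log2 ratio 1.59). On the other side the next gene, *pfl8*, read 276.5 in *sgo2*Δ and 282.9 in wt (log2 ratio -0.03), and *mfs2*, 9 genes away, had 0.22. The dim signal of *isp3* thus lay between raised genes on 1 side and level genes on the other. The second *isp* gene, *isp6*, for a vacuolar serine protease induced by starvation, lies inside its arm and read 1584 in *sgo2*Δ and 1427 in wt (log2 ratio 0.15).

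**Figure D4:**
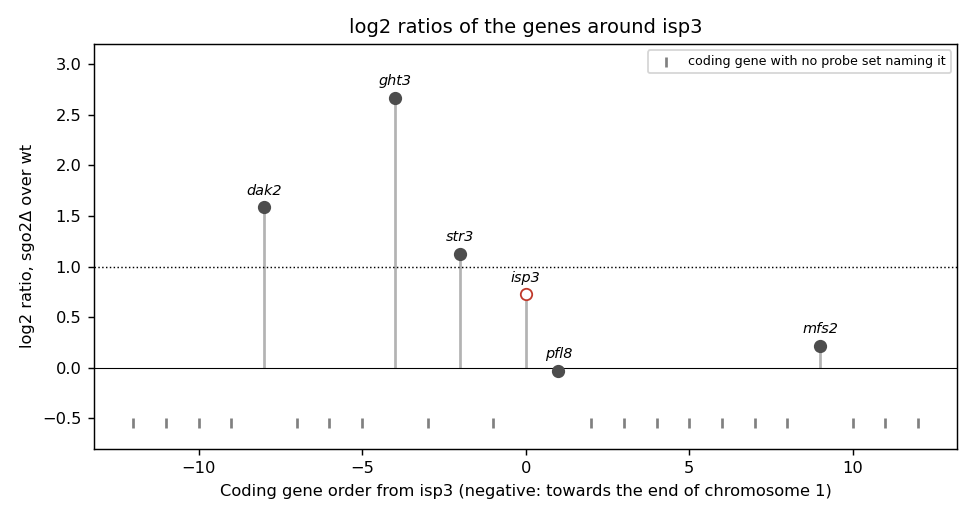
log2 ratio of *sgo2*Δ over wt for coding genes around *isp3* (red) on chromosome 1, by gene order, with negative positions towards the chromosome end. The open point (*isp3*) was under 100 on both arrays, ticks mark coding genes without a probe set naming them, and the dotted line marks 2-fold. Ratios are above 2-fold at *dak2*, *ght3* and *str3* (the last at least 1.42-fold against 100) and near 0 at *pfl8*.

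The surroundings of the other 36 members were read over a narrower window than the one shown for *isp3*, and many neighbours had no measured signal. Among the 5 coding genes on each side of them, 204 places were filled by measured genes, a gene near several members being counted for each. Of these 204, 0 were at least 2-fold higher or lower and 1, *mug162* beside *mam2*, was at least 1.5-fold higher. Among the named genes other than members, 0.543% were 2-fold higher and 0.0362% 2-fold lower. At 1.5-fold, 0.942% were higher and 0.0724% lower. With shares this small, few such genes would be met among 204 places, so these counts are a description.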

How the data were processed

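The deposited values are probe set signals on a linear scale. The authors scanned GeneChip arrays, scaled and compared them with GCOS 1.4 at default settings and masked the probe sets for *S. cerevisiae*. Of 10928 rows, 5748 were listed at 0 on both arrays, so the column medians are 0 in *sgo2*Δ and wt. The scale factor is not given in the sources used here. Names came from the platform annotation and were updated to ASM294v3 by gene identifier. Log2 signals of a gene's probe sets were averaged and then subtracted (*sgo2*Δ minus wt). Where 1 signal lay under 100, the fold was bounded against 100. With 1 array per strain no test was made. The genes given in full were all M and P genes, those called at 1.5-fold, and the extremes of each role. Members, lists and rules were chosen with earlier results of these data known. The code that applies the fold limits was checked on simulated signals with known folds. Alternatives covered scaling, floor, pseudocount, probe sets and the make-up of sets. Python 3.11.15, numpy 2.4.6, pandas 2.3.3 and matplotlib 3.10.9 were used.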

Additional observations from a re-analysis of the deposited data

How the results depend on the processing

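No paired analysis was possible because there is 1 array of each strain, which also leaves no replicate to omit. For members under 100, signal over background is the limit. Of 104 counts and medians under an alternative, 81 stayed within 1.5 times or within the spread of other genes (0.125 on the log2 scale). Members at least 2-fold higher numbered 1 with no floor (*mei3*). Those at least 1.5-fold higher numbered 1 after centring, with a floor of 200 and, chosen after seeing the data, with both arrays at 100 or with signals under 100 set to 100. They numbered 0 with quantile normalization or a pseudocount of 100, and 4 with no floor. Those at least 1.5-fold lower numbered 2 with quantile normalization and 0 with a floor of 200, a pseudocount of 100, both arrays at 100 or signals set to 100. Centring removes the shift of 0.13 by construction, and medians were then 0.060 for all members, 0.12 for M genes, -0.056 for P genes, 0.085 for signal transduction and -0.067 for Ste11 and Mei2 control. With quantile normalization they were -0.026, 0.026, -0.056, 0.026 and -0.18 in the same order, against -0.02 for all named genes, and the cause was not tested. The M median stayed above the P median in every setting run, but many settings could not change this order. Centring cannot change their difference. Except where *krp1* was added to the P set, the P median was the ratio of *sxa1* in every setting. The difference was again 0.18 with a floor of 200, with the brightest probe set and with *pat1*, which is in neither set. The M set without *matmc_1* gave no separate value, as that gene had no probe set. Members above 0 numbered 19 of 34 after centring, against 1379 of 2761 other named genes, and 12 of 32 with quantile normalization. For the counts at 2-fold and 1.5-fold, the shares of other named genes were not computed under the alternatives. Of 327 values of single members, 74 moved beyond the spread, 34 of them after centring and 31 with quantile normalization. The 34 follow from the rule, as centring moves every gene by 0.128 and the spread is 0.125. The medians of the member groups moved after centring for the same reason. A floor leaves the ratio of a single gene as it is, so it could move none. These tallies are thus no measure of robustness. No called gene turned its direction. After centring *fus1* had 0.51 and *map1* 0.62.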
